A study of Mus musculus with 4 samples.

Results

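Homologous recombination copies an intact sister chromatid to mend a broken DNA molecule, and the Fanconi anaemia pathway hands crosslinked or stalled replication forks to the same machinery. The genes described here are 33 members of these pathways and of the kinase signalling that guards replication, out of 32285 genes counted in 4 single-cell libraries. They were chosen by name as genes of DNA break repair and replication stress signalling; the rule uses no measured value, but it was set with earlier results of these data known. By role they are 8 genes of break sensing and end resection, 9 recombination mediators, 4 motor and helicase genes, 8 Fanconi core, anchor and ID complex genes, and 4 genes of replication stress signalling.

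The libraries came from female C57BL/6 mice that carried intracranial tumours of EO771, a mouse mammary cancer line, here made to express GFP. Mice received vehicle or SCDi, an inhibitor of stearoyl-CoA desaturase, for 14 days; no source used here names the compound, its dose or the age of the mice. Each treatment was a pool of 3 brains, from which live cells were sorted by GFP (tumour, CD45 absent) or by CD45 (immune, GFP absent). Each sort of each pool gave 1 droplet library of 3' RNA counts. The model is a single tumour line placed directly in the brain. With 1 pooled library a group there is no replicate error: no test across animals was run, no p is given, and every interval below is a 95% interval of counting error only.

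In a cycling cell, recombination is used mainly in S and G2 phase, when a sister chromatid is at hand, and many of its genes are transcribed most in those phases. The order of events gives the order of the results below. Break ends are sensed and cut back to single strands, mediators prepare them for strand pairing, motors and helicases move and undo the joints, the Fanconi complexes act at crosslinks, and Atr signalling slows the cycle while forks are stalled. E2F factors, the DREAM complex and the trimeric factor NF-Y are known regulators of cell cycle genes, and bind E2F sites, CHR elements and CCAAT boxes.

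Promoter windows of 4 members are shown because they span the range of the tumour values below: Bard1, Chek2 and Rad51ap1 were among the members higher in the SCDi library, and Fanca had the lowest ratio. Each window runs from 250 bases before to 50 after a RefSeq start (GRCm38.p6) and is printed 5' to 3' on the gene's strand. Capitals mark the letters searched on both strands: E2F letters (TTTCCCGC, TTTCGCGC, TTTGCCGC, TTTGGCGC), the CHR letters TTTGAA and their close variant in the search, TTCGAA, and the box CCAAT.
Bard1, chr1:71102923-71103222 on the minus strand: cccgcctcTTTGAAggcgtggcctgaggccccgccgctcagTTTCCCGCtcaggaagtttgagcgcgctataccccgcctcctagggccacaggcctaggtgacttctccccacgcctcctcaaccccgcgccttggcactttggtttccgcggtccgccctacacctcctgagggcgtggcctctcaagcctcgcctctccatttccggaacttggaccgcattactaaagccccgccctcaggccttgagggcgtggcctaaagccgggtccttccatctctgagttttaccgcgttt
Chek2, chr5:110839733-110840032 on the plus strand: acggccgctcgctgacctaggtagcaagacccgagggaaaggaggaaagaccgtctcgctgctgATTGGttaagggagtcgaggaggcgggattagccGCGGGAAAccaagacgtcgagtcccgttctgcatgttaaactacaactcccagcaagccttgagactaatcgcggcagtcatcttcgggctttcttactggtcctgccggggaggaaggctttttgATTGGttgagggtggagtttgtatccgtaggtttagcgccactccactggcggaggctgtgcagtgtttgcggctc
Rad51ap1, chr6:126939538-126939837 on the minus strand: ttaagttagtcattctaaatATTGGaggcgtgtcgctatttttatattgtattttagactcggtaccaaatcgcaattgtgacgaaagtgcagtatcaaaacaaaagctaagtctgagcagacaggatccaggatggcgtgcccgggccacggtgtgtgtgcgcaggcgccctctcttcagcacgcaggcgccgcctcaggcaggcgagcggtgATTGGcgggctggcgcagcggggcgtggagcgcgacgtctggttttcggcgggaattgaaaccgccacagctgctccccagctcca
Fanca, chr8:123318527-123318826 on the minus strand: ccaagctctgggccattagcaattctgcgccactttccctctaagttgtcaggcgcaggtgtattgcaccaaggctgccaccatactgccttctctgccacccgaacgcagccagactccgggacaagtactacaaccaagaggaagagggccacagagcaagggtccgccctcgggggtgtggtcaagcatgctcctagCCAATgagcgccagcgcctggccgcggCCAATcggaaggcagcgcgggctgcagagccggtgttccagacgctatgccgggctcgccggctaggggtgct

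The Bard1 window held CHR letters at base 9 and E2F letters at base 42, and no CCAAT. In Chek2 the E2F letters stood on the other strand (GCGGGAAA, from base 99), with 2 CCAAT boxes read as ATTGG. The windows of Rad51ap1 and Fanca held 2 CCAAT boxes each and neither of the other motifs, although these genes lay near opposite ends of the ratios in tumour cells. Of the 33 members, 25 matched the RefSeq windows; Exo1, Fancd2, H2afx, Nbn, Rad50, Rad54b, Rbbp8 and Xrcc2 did not. E2F letters were present in 6 of the 25 (Bard1, Brca2, Chek2, Fancg, Rad51c and Topbp1), 24.0% of them, against 2.27% of 32851 promoters. CCAAT was present in 16 of 25 (64.0%, against 37.4% of all) and CHR letters in 3 of 25 (Atr, Bard1 and Rad51b; 12%, against 19.2%). No motif overlapped another in these windows. A match describes the letters and not bound sites.

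The vehicle and SCDi tumour libraries held 307846497 and 329888529 UMIs, and the immune libraries 135851178 and 141068797. After filtering, 6157 vehicle and 7401 SCDi tumour cells were compared, with medians of 39965 and 35404 UMIs. Of the 5 epithelial markers all had UMIs in both libraries (1496 and 1418 CPM in sum, where CPM scales UMIs to 1000000 UMIs of a set of cells). The leukocyte marker Ptprc was 0 by the gate, and the endothelial list was at 10.88 and 10.997 CPM. Macrophage or monocyte markers were at 9.24 and 5.95 CPM in sum, with 7 and 6 of 7 markers detected, and glia and neuron markers at 41.7 and 32.1 CPM, with 8 and 7 of 8 detected. Both sums were lower in the SCDi library, and their part in the results was not tested. Any pair of libraries shared 9 to 23 barcodes, at most 0.314% of either.

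Across all tumour cells, most of the 33 genes stood higher in the SCDi library. All 33 had at least 1 CPM, 27 had a ratio of SCDi over vehicle above 1 (42.6% of 11464 genes did), and the members' median log2 ratio was 0.19, against -0.03 for all genes. A member was counted as higher or lower past a fold of 1.2: 13 were higher, where the background was 8.27% of genes, and 0 were lower, where it was 13.0%. The interval lay above 0 for 23 members, held 0 for 8, and lay below 0 for Atr and Fanca. No share over all genes stands beside these interval counts, which describe counting error alone. S phase and G2/M phase genes moved with the members: of 20 S phase genes 9 were higher (median 0.25) and of 20 G2/M genes 18 were higher (median 0.37). More cells expressing a gene and more RNA per cell are not separated in these sums.

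**Figure D1:**
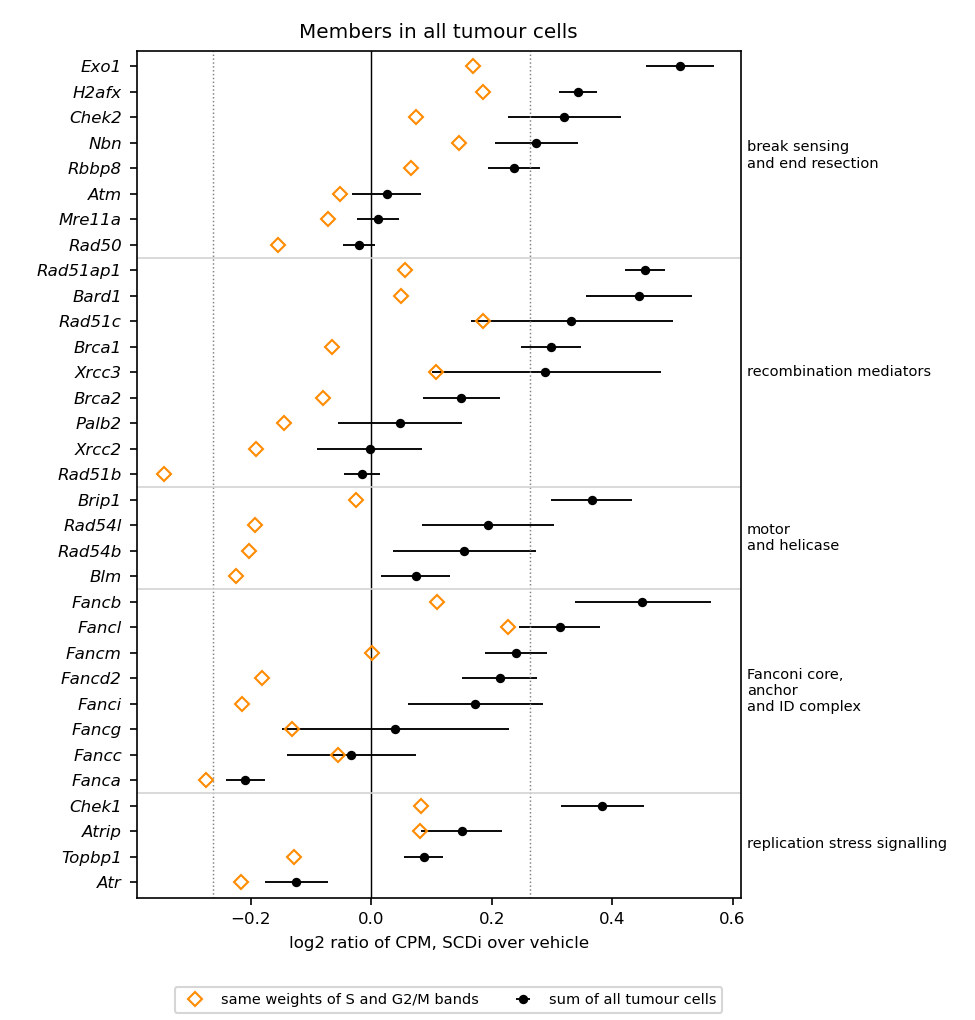
Log2 ratio of CPM, SCDi over vehicle, for each of the 33 genes in all tumour cells (x axis), grouped by role (y axis). Black points are sums over all tumour cells with 95% counting intervals, orange diamonds are ratios after both libraries were given the same weights of S and G2/M bands, and dotted lines mark a fold of 1.2 in each direction. The black points run from -0.21 (Fanca) to 0.51 (Exo1), and the diamonds from -0.34 (Rad51b) to 0.23 (Fancl).

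Among break sensing and end resection genes, 4 of 8 were higher. Exo1, the exonuclease of long-range resection, had 4257 UMIs (17.9 CPM) in the vehicle and 6532 (25.6 CPM) in the SCDi library. Its log2 ratio of 0.51 (0.46 to 0.57) was the highest of all members. H2afx, the histone variant phosphorylated beside breaks, was at 60.6 and 76.9 CPM, a log2 ratio of 0.34 (0.31 to 0.37). The checkpoint kinase Chek2 was at 6.90 and 8.62 CPM (0.32, 0.23 to 0.41). Nbn, which ties the Mre11 complex to Atm, was at 12.5 and 15.1 CPM (0.27, 0.20 to 0.34). Its partners in that complex did not share the difference: the nuclease Mre11a was at 53.2 and 53.6 CPM and Rad50, the ATPase that bridges the ends, at 92.0 and 90.7 CPM. The kinase Atm was likewise level, at 20.1 and 20.4 CPM. Rbbp8, which starts resection together with that complex, was at 33.1 and 39.0 CPM, a log2 ratio of 0.24 (0.19 to 0.28) that stayed within the fold of 1.2.

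Of the 9 recombination mediators 5 were higher. Rad51ap1, a stimulator of strand pairing, had 12078 vehicle and 17811 SCDi UMIs, or 50.9 and 69.8 CPM, a log2 ratio of 0.45 (0.42 to 0.49). Brca1 and Bard1 together form a ubiquitin ligase. Bard1 was at 7.43 and 10.1 CPM (0.44, 0.36 to 0.53) and Brca1 at 23.9 and 29.4 CPM (0.30, 0.25 to 0.35). Among the remaining mediators, Rad51c at 2.14 and 2.69 CPM (0.33, 0.17 to 0.50) and Xrcc3 at 1.70 and 2.08 CPM (0.29, 0.10 to 0.48) were higher. Members of the same complexes, Xrcc2, at 8.75 and 8.73 CPM, and Rad51b, at 72.8 and 72.1 CPM, were level. Brca2, a mediator mutated in inherited breast cancer, was at 15.4 and 17.1 CPM (0.15, 0.09 to 0.21). Palb2, which joins Brca1 to Brca2, was at 6.20 and 6.41 CPM, with an interval that held 0.

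Among the motors and helicases, Brip1 was the only member past the fold. This helicase partner of Brca1 was at 12.9 and 16.6 CPM, a log2 ratio of 0.37 (0.30 to 0.43). The DNA translocases Rad54l (5.19 and 5.93 CPM; 0.19, 0.08 to 0.30) and Rad54b (4.504 and 5.013 CPM; 0.15, 0.04 to 0.27) had intervals above 0 within the fold. Blm, the helicase that takes crossed strands apart, was at 19.5 and 20.5 CPM.

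The Fanconi genes spanned the widest range of any role. Fancb, a core subunit, was at 4.53 and 6.18 CPM (0.45, 0.34 to 0.56), and Fancl, the ubiquitin ligase subunit of the core, at 13.1 and 16.3 CPM (0.31, 0.25 to 0.38). The anchor Fancm was at 23.5 and 27.7 CPM (0.24), and the ubiquitinated pair Fancd2 and Fanci had log2 ratios of 0.21 (0.15 to 0.28) and 0.17 (0.06 to 0.29). Core subunits Fancg and Fancc were level at 1.87 and 1.92 CPM and at 5.82 and 5.69 CPM. Fanca, a scaffold of the core complex, had 16696 vehicle and 15544 SCDi UMIs, or 70.3 and 60.9 CPM. Its log2 ratio of -0.21 (-0.24 to -0.18) was the lowest of the 33. Fanca is the only member on chromosome 8, where 526 other genes had a median of -0.13; on the other chromosomes that carry members, the median of the other genes ran from -0.07 to -0.0037.

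Among the genes of replication stress signalling, kinase and effector pointed in opposite directions in these sums. Atr, the kinase that reads stalled forks, was at 25.7 and 23.6 CPM, a log2 ratio of -0.12 (-0.18 to -0.07) that stayed within the fold. Chek1, the kinase it activates, was at 12.3 and 16.1 CPM, a log2 ratio of 0.38 (0.32 to 0.45). Atrip, the partner that carries Atr to single strands, was at 13.8 and 15.3 CPM, and the activator Topbp1 at 61.2 and 65.0 CPM, both within the fold.

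Other genes of the same pathways, listed by function, were next. Of 12 presynaptic genes 11 were measured and 2 were higher (median 0.10); the ends were Rpa2, a subunit of the single-strand binding protein (30.3 and 40.8 CPM, log2 ratio 0.43), and the mediator Rad51d (-0.20). Of 15 Fanconi associated genes 3 were higher (median 0.02), from Faap24, which pairs with Fancm (26.1 and 38.5 CPM, 0.56), to the junction nuclease Mus81 (-0.23). The list of 11 replication stress genes had 4 higher (median 0.20), with Clspn, the mediator between Atr and Chek1, at 39.1 and 49.9 CPM (0.35) and the clamp subunit Hus1 at -0.17. Resolution genes had 1 of 4 higher, the nuclease Gen1 (0.34), with Top3a lowest (-0.09). Of 8 break signalling genes 0 passed the fold, from Uimc1 (0.20) to Trp53bp1 (-0.09). End joining, the route that rejoins ends without a template, had 1 of 10 genes higher (Nhej1, 0.31) and 1 lower (Xrcc5, 1.27 and 0.84 CPM, -0.59), with a median of -0.01.

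Tumour cells were then divided by Mki67, a marker of cycling cells. At least 1 Mki67 UMI was found in 2296 vehicle cells (37.3%, 36.1 to 38.5) and 3608 SCDi cells (48.8%, 47.6 to 49.9). Thinned to 10000 UMIs a cell, which left out 830 and 1200 shallower cells, the shares were 17.7% (16.7 to 18.8) and 26.8% (25.7 to 27.9). At 2000 UMIs a cell they were 4.12% and 6.56%, against 0 of 58 and 1 of 48 neutrophils, which do not cycle, at that depth. The share depended on depth in both libraries. Cells of the Mki67-negative class had medians of 35339 and 29178 UMIs, and those of the Mki67-positive class 48087.5 and 40689, so the SCDi cells were the shallower ones in each class.

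Summed over all Mki67-positive cells, the members had no common direction. Of the 33, 16 had a ratio above 1 (39.6% of genes did), 0 were higher past the fold (5.94% of 11490 genes were) and 2 were lower (13.4% of genes were), with a median log2 ratio of -0.01 against -0.05 for all genes. Rad51b was at 104.0 CPM in vehicle and 83.1 CPM in SCDi cells, a log2 ratio of -0.32 (-0.36 to -0.29). Fanca was at 79.2 and 64.0 CPM (-0.31, -0.35 to -0.27). These were the only members past the fold. The highest ratios were Rad51c at 2.47 and 2.94 CPM (0.25, 0.04 to 0.47), Exo1 at 24.2 and 28.3 CPM (0.23, 0.16 to 0.30) and Fancl at 14.4 and 16.7 CPM (0.22, 0.13 to 0.31). Brca1, at 34.5 and 34.3 CPM, was level in this class. Low members next to the pair above were Atr, at 29.7 and 26.1 CPM (-0.18), and Xrcc2, at 11.004 and 9.69 CPM (-0.18). The G2/M list was level too (median 0.01), and the S phase list stood at 0.10.

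Summed over all Mki67-negative cells, most members were higher. There 29 members had a ratio above 1 (43.0% of genes did), 21 were higher past the fold (10.1% of 11441 genes were), 0 were lower (14.1% of genes were), and the median log2 ratio was 0.34 against -0.04 for all genes. Bard1 was at 3.68 CPM in vehicle and 6.60 CPM in SCDi cells, a log2 ratio of 0.84 (0.67 to 1.02). Rad51ap1 was at 27.4 and 48.8 CPM (0.83, 0.77 to 0.90), and Exo1 at 12.3 and 21.3 CPM (0.79, 0.70 to 0.89). These 3 had between 459 and 3418 UMIs in the vehicle class, so counting error was small beside the differences. Of the Fanconi genes Fancb was at 2.62 and 4.35 CPM (0.73), Fancd2 at 7.41 and 12.1 CPM (0.71) and Fanci at 2.64 and 3.54 CPM (0.42). Fancl (11.98 and 15.6 CPM, 0.38) and Fancm (17.3 and 22.4 CPM, 0.37) were also higher.

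Mediators and motors were higher in that class too. All 9 mediators had ratios above 1 and 7 passed the fold, among them Brca1 at 14.3 and 21.7 CPM (0.60, 0.51 to 0.69), Xrcc3 at 1.53 and 2.13 CPM (0.47) and Brca2 at 11.03 and 13.6 CPM (0.30). Rad51c, at 1.84 and 2.29 CPM (0.32), passed it with a wide interval of 0.05 to 0.59. Rad51b was at 44.7 and 54.8 CPM, a log2 ratio of 0.29 (0.24 to 0.35), the opposite direction from Mki67-positive cells. Brip1 was at 7.56 and 11.4 CPM (0.59), Rad54l at 3.01 and 4.29 CPM (0.51) and Rad54b at 2.69 and 3.66 CPM (0.45). Chek1 was at 9.50 and 14.1 CPM (0.57), the only one of the 4 members of replication stress signalling past the fold; of the list of 11 other replication stress genes 6 were higher (median 0.37), led by Clspn (0.66).

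Of the 8 members that sense breaks or resect ends 5 passed the fold here, Exo1 above among them. H2afx was at 43.3 and 56.2 CPM (0.38), Rbbp8 at 26.0 and 33.4 CPM (0.36), Chek2 at 4.61 and 5.83 CPM (0.34) and Nbn at 10.9 and 13.4 CPM (0.29). Mre11a (0.03), Rad50 (0.02) and Atm (-0.04) were level, as was Fancc (-0.04). The lowest ratios were those of Atr, at 22.1 and 19.6 CPM (-0.18, -0.26 to -0.09), and Fanca, at 62.4 and 56.0 CPM (-0.16, -0.21 to -0.11). In these sums Atr and Fanca were thus below 1 in both Mki67 classes. Cell cycle genes were higher in the same cells: the S phase list had 17 of 20 higher (median 0.40) and the G2/M list 20 of 20 (median 0.81).

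**Figure D2:**
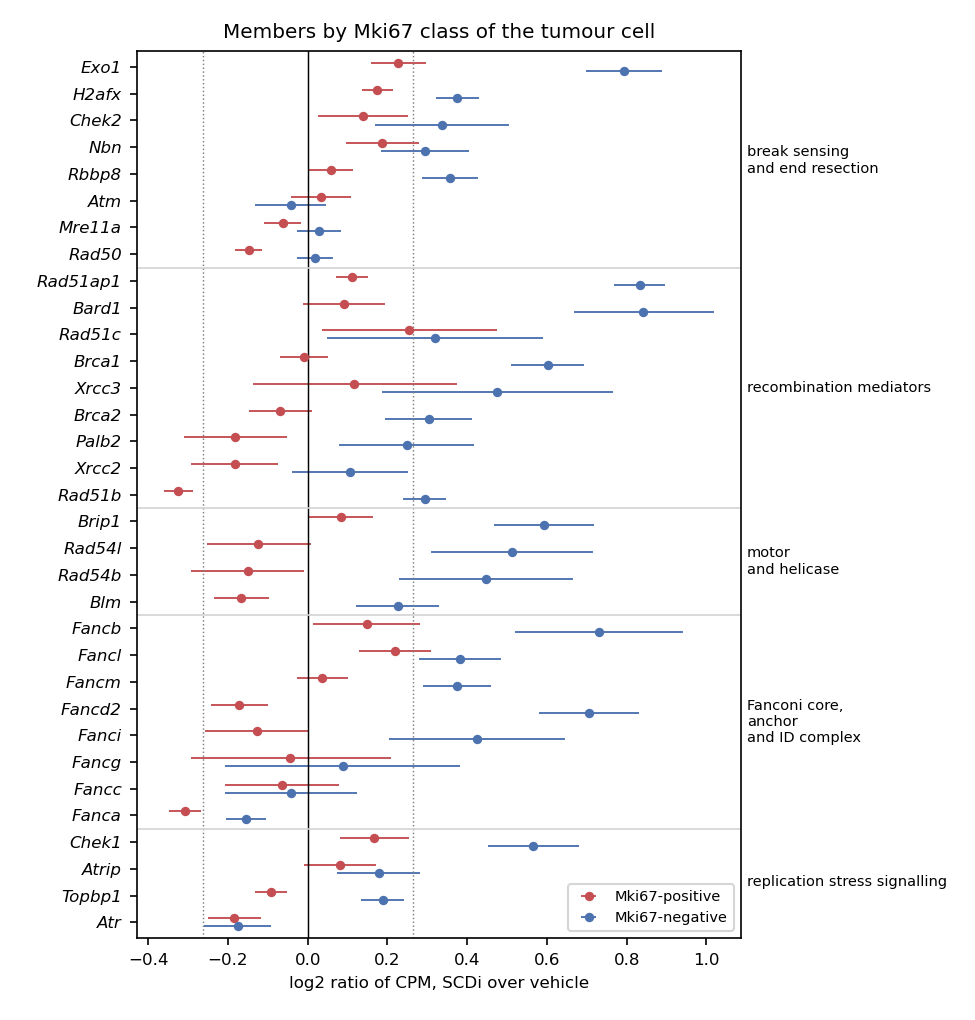
Log2 ratio of CPM, SCDi over vehicle (x axis), for the 33 genes (y axis, grouped by role) in Mki67-positive (red) and Mki67-negative (blue) tumour cells, with 95% counting intervals and dotted lines at a fold of 1.2. Blue points reach 0.84 (Bard1) while no red point exceeds 0.25 (Rad51c), and Atr and Fanca lie below 0 in both classes.

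Within each library the members were more abundant in Mki67-positive cells. In the vehicle library the log2 ratio of Mki67-positive over Mki67-negative cells was above 0 for 33 of 33 members. It was at least 2-fold for 12 (2.19% of 11446 genes were) and had a median of 0.75, against 0.06 for all genes. In the SCDi library it was above 0 for 32 of 33, at least 2-fold for 0 (0.969% of 11455 genes were), and had a median of 0.42, against 0.04 for all genes. No share over all genes stands beside the counts above 0. At a fold of 1.2 the vehicle library counted 29 members (15.3% of genes passed) and the SCDi library 25 (10.4% of genes passed). With cells thinned to 10000 UMIs before the division, 3 and 0 members were at least 2-fold, the medians were 0.56 and 0.34, and the vehicle value was the larger for 30 of 33. Fancd2 had the highest vehicle value, 1.79 (25.7 against 7.41 CPM), and 0.91 in the SCDi library (22.8 against 12.1 CPM). Bard1 was at 1.65 and 0.90, Fanci at 1.51 and 0.96, and Rad51ap1 at 1.49 and 0.77. Members with little contrast in either library were Atm (0.15 and 0.22) and Fancc (0.17 and 0.15). The same contrast for the G2/M list was 1.99 in the vehicle and 1.23 in the SCDi library.

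**Figure D3:**
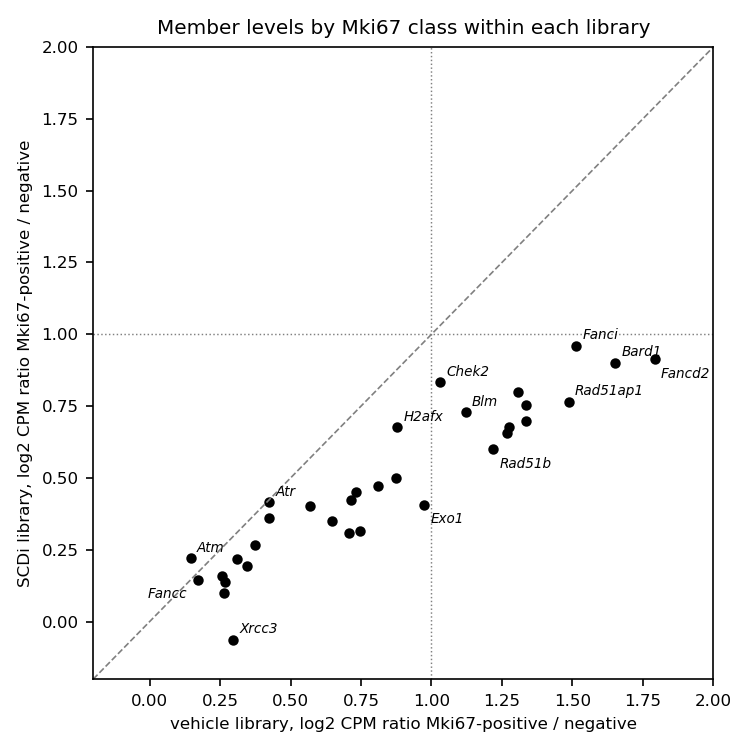
Log2 ratio of CPM in Mki67-positive over Mki67-negative tumour cells for each of the 33 genes in the vehicle library (x axis) and the SCDi library (y axis); the dashed line marks equal values and the dotted lines a fold of 2. All points but Atm lie below the dashed line, and 12 pass a fold of 2 in the vehicle library against 0 in the SCDi library.

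Further divisions of the tumour cells used Mki67 at equal depth, Top2a, a second marker of cycling cells, and the cell cycle genes as a whole. Cells with 0 Mki67 UMIs of 10000 (4384 vehicle, 4542 SCDi) had 16 members higher (8.91% of genes were), 0 lower (14.4%) and a median of 0.25. Cells with 1 to 2 (899 and 1560) had 2 higher (6.94%), 2 lower (14.1%) and a median of -0.01. Only 44 and 99 cells had 3 or more; there 6 of 32 members were higher (18.8%) and 11 lower (30.0%), with a median of 0.0001. The members stood clear of 0 as a group in the lowest Mki67 band alone. In cells without a UMI of Mki67 or Top2a (1586 vehicle and 1412 SCDi), 27 of 30 members had a ratio above 1 (5597 of 11418 genes did). The members' median was 0.45, against -0.0045 for all genes, while the G2/M list reached 1.35. Even in cells without both markers, then, G2/M genes were higher in the SCDi library.

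The last division used the cell cycle genes, by bands of summed S phase and summed G2/M genes over cells thinned to 10000 UMIs (5 by 5 bands, chosen after the data were seen). Without matching, Mki67-negative cells of this depth held a median of 3 G2/M UMIs of 10000 in the vehicle and 9 in the SCDi library, and of 7 and 10 S phase UMIs. With both libraries given the same weights of the bands, the members' median in all tumour cells went from 0.19 to -0.05, where all genes were at -0.05. No member stayed higher past the fold (5.01% of genes were), and Rad51b (-0.34) and Fanca (-0.27) were lower (10.1% of genes were). In Mki67-negative cells the median went from 0.35 to -0.02, with 0 higher (5.96%) and 2 lower (8.5%), Fanci and Atr at -0.27 each. The weights did not level the cycle genes fully in that class: the S phase list came to 0.0034 but the G2/M list to 0.16, from 0.82 before. In Mki67-positive cells it went from -0.01 to -0.08, with 0 higher (5.24%) and 2 lower (13.9%), again Rad51b (-0.38) and Fanca (-0.32). After matching, the highest members in all tumour cells were Fancl (0.23), H2afx (0.19), Rad51c (0.18) and Exo1 (0.17), and Brca1 (-0.06) and Brip1 (-0.03) were below 0. Matching on 3 Mki67 bands in place of the cycle genes left a median of 0.13.

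Counted cell by cell within Mki67 classes, the SCDi mean was the higher one only in cells without a Mki67 UMI. Means over all cells also hold the larger share of cells with a Mki67 UMI in the SCDi library (26.8% against 17.7%). At 10000 UMIs a cell the 33 genes together had a mean of 7.57 UMIs (SD over cells 5.20) in 5327 vehicle cells and 8.63 (SD 4.84) in 6201 SCDi cells. Where no Mki67 UMI was drawn, the means were 6.94 and 8.03 and the lower quartiles 3 and 4.25. Where at least 1 was drawn, they were 10.5 and 10.3. Cells with 15 or more member UMIs made up 20.7% of the latter in the vehicle and 16.9% in the SCDi library. Shares of cells with a UMI were also taken. Rad51ap1 was found in 31.3% (30.0 to 32.6) of thinned vehicle cells and 43.9% (42.7 to 45.2) of SCDi cells, and Exo1 in 14.2% and 22.1%. Before thinning these shares were 51.9% and 64.8% for Rad51ap1 and 36.7% and 44.9% for Exo1. Fanca was found in 46.9% (45.5 to 48.2) and 44.2% (42.9 to 45.4), the one of these 3 with the lower share in SCDi cells. Rad51b, level in CPM over all tumour cells, was found in 35.3% (34.0 to 36.6) and 40.8% (39.6 to 42.0), so its share did not follow its CPM.

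**Figure D4:**
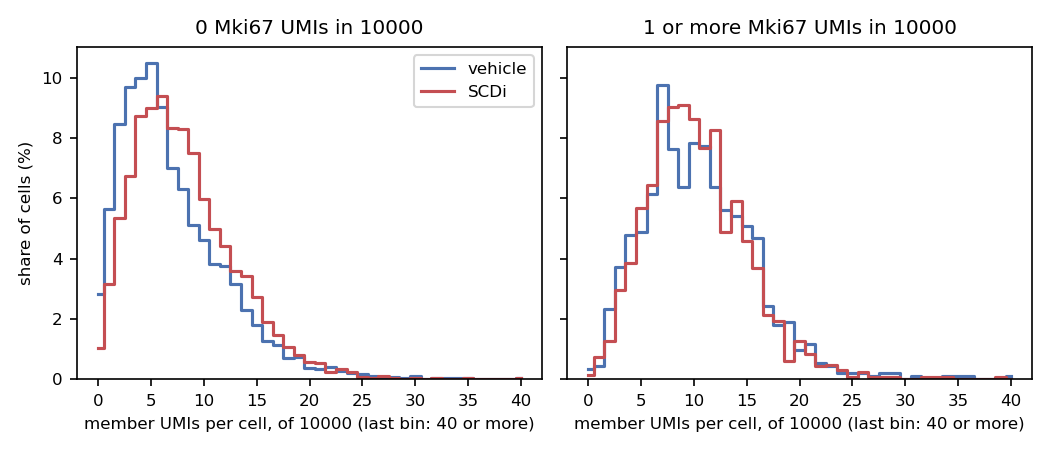
Share of tumour cells (y axis, percent) by the summed UMIs of the 33 genes per cell (x axis), each cell thinned to 10000 UMIs, for cells with 0 (left) and with 1 or more (right) Mki67 UMIs; blue is the vehicle and red the SCDi library. On the left the SCDi curve is shifted to higher counts (means 8.03 and 6.94), and on the right the curves overlie each other (10.3 and 10.5).

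Tumour cells fell into 15 Leiden clusters made without the member genes, of which 11 held at least 50 cells of both libraries. The members' median ran from -0.08 in cluster 3 to 0.51 in cluster 9, in which 30.2% of vehicle and 56.0% of SCDi cells were Mki67-positive. In cluster 0 it was 0.41, but its cells were shallow (medians of 1676.5 and 1024.5 UMIs). Its Mki67-positive shares were 3.78% and 3.75%, and the part of depth in them was not tested. There the intervals of 27 of 33 members held 0, and the cluster gave 0.80% and 0.56% of the summed UMIs. The class sums hid differences between clusters. In clusters 1 and 7, where at least 84.9% of cells were Mki67-positive, the median was -0.01 and 0.12, but in cluster 6 (74.0% and 65.9% positive) it was 0.21. Among Mki67-positive cells alone, the median reached 0.29 in cluster 6 and 0.31 in cluster 9, and was lowest in cluster 3 (-0.14). All genes of at least 20 CPM had medians of -0.02 and 0.02 in the Mki67-positive cells of clusters 6 and 9. Among Mki67-negative cells the members' median was between -0.04 and 0.03 in clusters 1, 3, 4 and 5, and at least 0.24 in clusters 0, 2, 6, 9, 11 and 12. Clusters 11 (medians of 13257 and 12990 UMIs) and 12 (12895 and 9039.5) were also shallow. Over all their tumour cells, the intervals of 31 and 29 of 33 members held 0. The S phase list stood at 0.47 in the Mki67-positive cells of cluster 6 and at 0.36 in those of cluster 9. Exo1 and Fancl had ratios above 1 in 11 of 11 clusters, and Bard1, H2afx, Nbn and Rbbp8 in 10. Fanca was above 1 in 2 of 11, and its interval lay below 0 in 5. Atr was above 1 in 4 of 11, and its interval lay below 0 in 1. As a mean over clusters, Atr changed sign to 0.12 in all tumour cells. That mean was 0.12 in Mki67-negative and 0.06 in Mki67-positive cells. In all tumour cells the highest Atr value was that of the shallow cluster 0, 1.21 (-0.03 to 2.60) from 9 and 16 UMIs. Clusters 4, 8, 10 and 14 held at least 80% cells of 1 library, together 1194 vehicle and 1379 SCDi cells. Without them the median was 0.15, where it was 0.19 with all clusters.

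Leukocytes of the same brains show how these genes behave in cycling cells that are not tumour cells. Cells with UMIs of both Mki67 and Top2a were 271 of 6352 vehicle leukocytes (4.27%, 3.78 to 4.79) and 240 of 6002 SCDi leukocytes (3.999%, 3.52 to 4.53), with medians of 43319 and 45513 UMIs. Against leukocytes without either marker, which had medians of 15042.5 and 16023.5 UMIs, all 33 members were higher in both libraries. The share of all genes with a ratio above 1 is not given for this contrast. At least 2-fold were 26 in the vehicle library (16.6% of 12787 genes were) and 25 in the SCDi library (17.0% of 12619), with median log2 ratios of 2.12 and 2.19. The largest contrasts were those of Rad54b (6.03 and 5.35), Rad51ap1 (5.51 and 5.76) and Exo1 (5.47 and 5.90), and the smallest that of Rbbp8 (0.11 and 0.20).

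The members were then divided by these immune values, which come from other libraries than the tumour values. The 17 members at least 4-fold higher in cycling leukocytes of both immune libraries had a median tumour log2 ratio of 0.29, and the other 16 one of 0.04. In Mki67-negative tumour cells the medians were 0.51, with 16 of 17 past the fold, and 0.14, with 5 of 16. In that set 10.1% of all genes were higher past the fold, as were 17 of 20 S phase and 20 of 20 G2/M genes. All genes were not divided by the leukocyte contrast, so the split has no comparator outside the members. In Mki67-positive tumour cells they were 0.04 and -0.05. Across the 33 members the leukocyte contrast and the tumour ratio had r = 0.54 (rho 0.51) in all tumour cells, 0.76 (0.75) in Mki67-negative and 0.05 (0.02) in Mki67-positive cells. These correlations are descriptions across genes, which share libraries and depth within each axis.

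Between treatments, cycling leukocytes showed no common direction of the members. Of the 33, 13 had a ratio above 1 (45.0% of genes did), 3 were higher past the fold (14.7% of 12926 genes were) and 2 were lower (23.2% of genes were), with a median of -0.03 against -0.04 for all genes. The S phase and G2/M lists had medians of 0.11 and 0.10, each with 16 of 20 ratios above 1. Fanci had 202 vehicle and 147 SCDi UMIs, or 16.9 and 12.3 CPM, a log2 ratio of -0.45 (-0.77 to -0.14). Nbn had 195 and 247 UMIs, or 16.3 and 20.7 CPM (0.35, 0.07 to 0.62). Fancl had 326 and 270 UMIs, or 27.3 and 22.7 CPM (-0.27, -0.50 to -0.03), the opposite sign to tumour cells. Rad51b was at 221 and 196 CPM (-0.18, -0.26 to -0.10), and no other member's interval excluded 0. Xrcc3 (30 and 42 UMIs, 0.48) and Fancb (65 and 88 UMIs, 0.44) passed the fold on few counts, with intervals from -0.22 to 1.22 and from -0.04 to 0.93. Blm, at 43.3 and 38.7 CPM (-0.16), and Palb2, at 8.28 and 9.40 CPM (0.18), were within it. Brca1 (40.97 and 39.6 CPM), Exo1 (18.2 and 19.6 CPM), Rad51ap1 (34.7 and 36.9 CPM), Bard1 (28.7 and 26.9 CPM) and Fanca (18.9 and 18.9 CPM) did not differ beyond counting error.

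**Figure D5:**
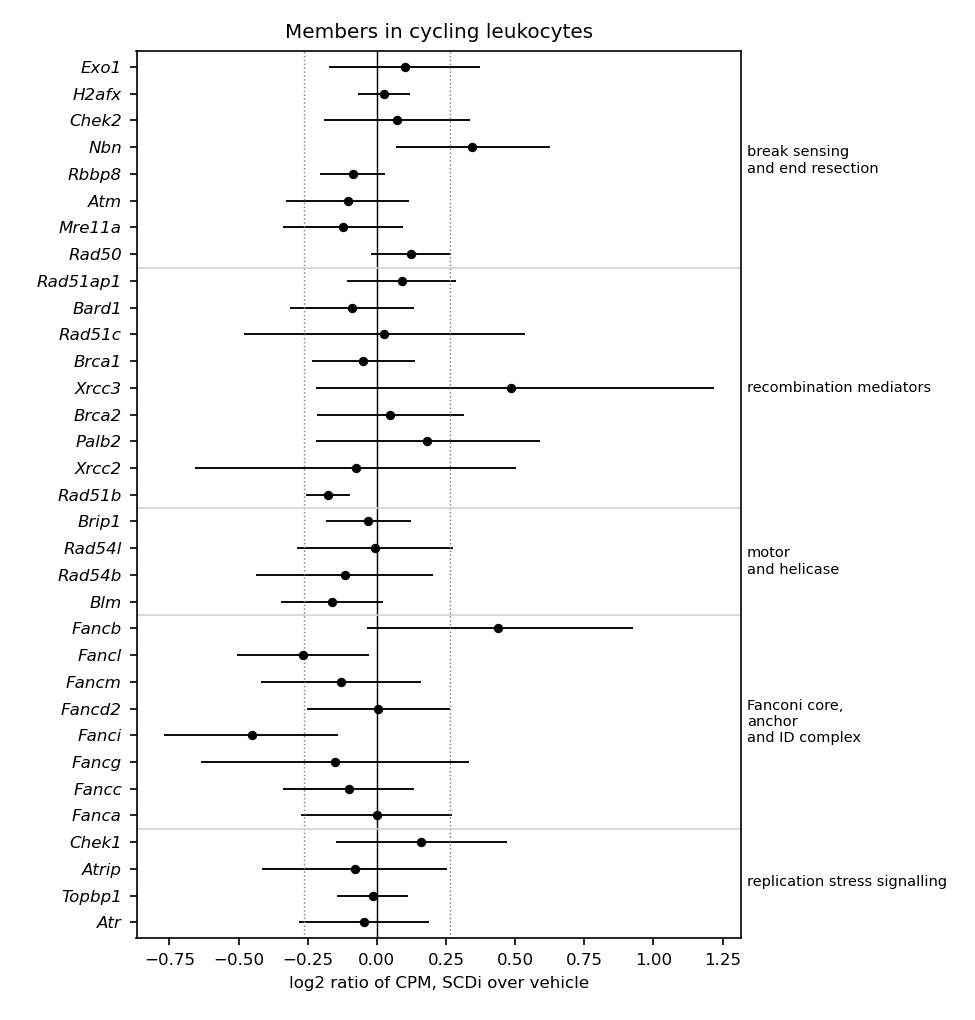
Log2 ratio of CPM, SCDi over vehicle (x axis), for the 33 genes (y axis, grouped by role) in cycling leukocytes, with 95% counting intervals and dotted lines at a fold of 1.2. Most intervals cross 0; those of Nbn above it and of Fanci, Fancl and Rad51b below it do not.

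The cell mix of the cycling leukocytes differed between the libraries. Markers of T or NK cells summed to 1308 and 866 CPM, with 8 of 8 detected in both, and those of macrophages or monocytes to 2045 and 2408 CPM, with 7 of 7 detected. Given the same weights of lymphocyte gate, macrophage or monocyte gate and the rest, the median was -0.01. Of 271 vehicle and 240 SCDi cells, 36 and 29 were in the lymphocyte gate and 98 and 118 in the macrophage or monocyte gate. The rest met neither gate and was weighted as 1 group, so the mix within it was not levelled. Within the macrophage or monocyte gate (98 vehicle and 118 SCDi cells) Fanci was at 15.8 and 10.1 CPM (-0.65, -1.20 to -0.12) and Nbn at 19.2 and 23.5 CPM (0.29, -0.12 to 0.71). The lymphocyte gate held 36 and 29 cells, in which Fanci had 35 and 25 UMIs, or 27.8 and 25.6 CPM (-0.11, -0.92 to 0.66). The G2/M list had a median of -0.44 in the lymphocyte gate and 0.18 in the macrophage or monocyte gate. The S phase list had 0.23 and 0.19, and the part of cycle state in the leukocyte sums was not tested. At the depth of all cycling leukocytes, the counting intervals of 29 of the 33 members held 0. That count too has no share over all genes beside it.

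In leukocytes without a UMI of Mki67 or Top2a, 24 of the 33 members reached 1 CPM, 3 of them with a ratio of SCDi over vehicle above 1 (42.1% of 12224 genes were). Of the 24, 1 was higher past a fold of 1.2 (5.87% of genes were) and 6 were lower (16.3% of genes were), and the median log2 ratio was -0.14. Fanca was the higher one, with 491 vehicle and 878 SCDi UMIs, or 5.54 and 9.42 CPM (0.76, 0.60 to 0.93), a direction opposite to that in tumour cells. Rad51b, with 2713 and 1753 UMIs, or 30.6 and 18.8 CPM, was lowest (-0.70, -0.79 to -0.62). Atr was at 15.9 and 13.0 CPM (-0.29, -0.41 to -0.18). These sums mix all immune types of the sort, and the part of the cell mix in them was not tested.

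Several members share ground with other genes, and no source used here says whether the counting used strand. Fancc overlaps Aopep on the opposite strand over 41054 bases, Xrcc3 overlaps Klc1 over 4653, Fanci overlaps Polg over 4034, Rad54l overlaps Lrrc41 over 2780 and Fancl overlaps Vrk2 over 555, and each of these neighbours had more UMIs than the member. Fanca overlaps Zfp276 over 1446 bases, where Zfp276 had 1609 and 1520 UMIs against 16696 and 15544 of Fanca. On the same strand, Rad54b overlaps Fsbp over 7927 bases (48 and 54 UMIs of Fsbp) and Fancc overlaps Gm16132 over 4285. Brca2 overlaps Gm42531 over 4048 (45 and 63 UMIs) and Atrip overlaps Trex1 over 1802 (0 and 0 UMIs). Strand cannot separate reads in such stretches. The values of Fancc, Xrcc3, Fanci, Rad54l, Fancl, Rad54b, Brca2 and Atrip are less certain than those of members without an overlap. Rad51b spans 517409 bases of chromosome 12, the longest of the 33 genes, and no source used here says whether intronic reads were counted.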

How the data were processed

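The authors deposited raw UMI counts per gene and barcode. Cell Ranger 7.1.0 and the build mm10 are named in the submitters' processing notes; the gene annotation and the use of strand and introns have no statement in any source used here. Barcodes with at least 300 genes and at most 15% mitochondrial UMIs were kept. Scrublet's automatic threshold (scanpy 1.11.5) marked at most 0.031% of barcodes in a library, so the highest scores were removed at 0.8% per 1000 barcodes, which left 6572 vehicle immune, 7009 vehicle tumour, 6120 SCDi immune and 8262 SCDi tumour cells. Tumour cells are those without a Ptprc UMI (6 and 0 left out) and with fewer than 3 UMIs of 7 endothelial markers (847 vehicle and 861 SCDi left out); leukocytes have a Ptprc UMI.

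UMIs were summed over the cells of a set in each library and scaled by the set's total to CPM. Ratios are SCDi over vehicle on a log2 scale, after adding 0.5 counts to each sum. A ratio's interval is the exact conditional binomial 95% interval of a pair of counts, and that of a share is Clopper-Pearson; both cover counting error only. Genes with a mean of at least 1 CPM over both libraries of a set form the background. Per-gene values are given for members past a fold of 1.2 in any of the 4 sets and for the 3 highest and 3 lowest in each, and for the ends of each other list. Bands standardise both libraries to the same weights, taken as each band's share of the summed UMIs of both libraries. Leiden clusters (leidenalg 0.10.2, resolution 1.0, 2000 variable genes, 30 components, 20 neighbours) were made without the members. Gene positions came from GENCODE M21 and promoters from RefSeq. The ratio and its interval were run on counts simulated with counting error only, the error that the interval assumes. That run says nothing of spread between cells, pools or animals. The members and lists were chosen with earlier results of these data known.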

Additional observations from a re-analysis of the deposited data

How the results depend on the processing

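No paired analysis was possible because each group is 1 pooled library and the labels number no replicates; for the same reason no replicate could be left out. Under other settings 141 list results kept their direction and size, 37 moved and 2 reversed, and 1287, 281 and 16 results of single members did so; the cause was not tested. The same weights of S and G2/M bands, chosen after seeing the data, reversed the median in all tumour cells to -0.0548 (0 higher, 2 lower) and in Mki67-negative cells to -0.0242 (0 higher, 2 lower). They also reversed, in all tumour cells, Brca1 (-0.0645) and Brip1 (-0.025), and in Mki67-negative cells Brca1 (-0.0242), Brca2 (-0.0071), Rad51b (-0.26), Fancd2 (-0.0378), Fanci (-0.27), Rad54l (-0.19), Rad54b (-0.17) and Brip1 (-0.0927). As a mean over Leiden clusters, Rad51b reversed in Mki67-positive cells (0.0547), and Fanci (-0.14), Rad54l (-0.0088) and Rad54b (-0.0226) in Mki67-negative cells, where Chek2 reversed by the average of single-cell CPM (-0.30). Fancl reversed in cycling leukocytes of limited depth (0.0278).

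The counts below are of members alone and stand without the share over all genes at each setting. They are not read as results about the members. At the main setting of cycling leukocytes, 23.2% of genes were lower past the fold. In all tumour cells, the median was 0.32 in cells of 20000 to 60000 UMIs. Higher past the fold were 4 members among those of 20 CPM or more, and 8 without clusters mostly of 1 library (added after seeing the data). In Mki67-positive cells, members higher past the fold were 2 at limited depth, 2 scaled by the median of ratios, 2 by the average of single-cell CPM, 1 as a mean over clusters (median 0.0926), 1 with an endothelial gate of 3 different markers (added after seeing the data), 2 with Mki67 read at 10000 UMIs, 6 with Mki67 or Top2a and 1 with at least 3 Mki67 UMIs. Members lower were 1 at limited depth, 0 over clusters and 0 with Mki67 or Top2a. In Mki67-negative cells, 1 member was lower by the average of single-cell CPM, the median was 0.19 with 4 higher among 9 members of 20 CPM, and 0.45 without Mki67 or Top2a. In cycling leukocytes, members lower were 10 at 10000 to 40000 UMIs (median -0.11), 5 by the average of single-cell CPM and 5 with at least 3 UMIs each of Mki67 and Top2a (median -0.11). They were 1 with all deposited barcodes, no doublet removal, scaling by the median of ratios, 20 CPM (0 higher), 5 counts added, 1 Mki67 UMI, no Krt8 UMI, or the same weights of leukocyte gates (added after seeing the data).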
